A study of Mus musculus with 18 samples.

Results

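Pnkd and Lgalsl are a pair of mouse genes whose liver RNA was high from the second part of the night until just after lights on. It was low late in the light phase. They were taken by symbol from the table of normalized values, as 2 of the 14451 genes listed there, and both were chosen by their normalized values in these same livers, which were highest late in the dark. Their course over the day is therefore given as a description without a test. The livers came from 18 wild-type (WT) male mice of 8 to 9 weeks of age kept in a cycle of equal light and dark phases, and 3 livers were taken at each of 6 zeitgeber times (ZT, hours after the lights come on), namely ZT1, ZT5, ZT9, ZT13, ZT17 and ZT21. Lights are on from ZT0 to ZT12 and off from ZT12 to ZT24. The strain is not given in the sources used here. A larger number of mice was prepared per time point, and RNA quality decided which 3 were sequenced. Each liver is a separate animal, so no animal was followed over time, and the spread between the 3 livers of a time point is the error given below. Polyadenylated RNA was sequenced to between 10268168 and 23242842 estimated reads per liver (median 12078875). Liver identity was checked with 8 hepatocyte markers, all 8 of which were in the table, with Alb (serum albumin) at a mean value of 64809.

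PNKD is a protein with a metallo-beta-lactamase fold, related in sequence to hydroxyacylglutathione hydrolase (glyoxalase II), the enzyme that acts on the glutathione thioester made from methylglyoxal. The gene is named for paroxysmal nonkinesigenic dyskinesia, an inherited human movement disorder. LGALSL is a galectin-like protein that carries a single domain related to the sugar-binding domain of the galectins. In the liver, a clock in each cell drives daily RNA rhythms, in which the activators ARNTL (BMAL1) and CLOCK switch on the Per, Cry, Nr1d1 and Dbp genes, and feeding, which in mice takes place mainly at night, adds a further daily signal.

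The genes lie on different chromosomes. On GRCm38, Pnkd (ENSMUSG00000026179) is on the plus strand of chromosome 1 from 74284930 to 74353694, and GENCODE gives it 8 transcripts, 4 of them protein coding. A short coding form, Pnkd-202, starts inside the gene at 74332610. Lgalsl (ENSMUSG00000042363) is on the minus strand of chromosome 11 from 20823576 to 20831056, with 4 transcripts of which 1 is protein coding. The values are sums per gene, so the forms of Pnkd cannot be told apart in them. Tmbim1, which encodes a membrane protein, lies wholly inside the span of Pnkd on the opposite strand over 17376 bp, but the exons of both genes share 0 bases.

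The promoters are printed because both genes moved together over the day, and known clock motifs can be looked for in them. RefSeq (GRCm38.p6) gives a promoter entry for both genes. The 250 bases before the start are shown 5′ to 3′ along the gene, with capitals marking each GC box (GGGCGG or its complement CCGCCC, the core of the sites of SP1-type factors). The Pnkd entry is chr1:74332360-74332609 on the plus strand and belongs to the start of the short form. The Lgalsl entry is chr11:20831109-20831358 on the minus strand and belongs to a RefSeq start that lies upstream of the GENCODE start at 20831056.
Pnkd: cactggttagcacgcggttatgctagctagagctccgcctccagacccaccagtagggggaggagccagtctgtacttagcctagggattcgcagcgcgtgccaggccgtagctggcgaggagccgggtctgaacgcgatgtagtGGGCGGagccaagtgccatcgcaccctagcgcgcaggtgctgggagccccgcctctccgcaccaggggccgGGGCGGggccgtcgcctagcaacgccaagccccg
Lgalsl: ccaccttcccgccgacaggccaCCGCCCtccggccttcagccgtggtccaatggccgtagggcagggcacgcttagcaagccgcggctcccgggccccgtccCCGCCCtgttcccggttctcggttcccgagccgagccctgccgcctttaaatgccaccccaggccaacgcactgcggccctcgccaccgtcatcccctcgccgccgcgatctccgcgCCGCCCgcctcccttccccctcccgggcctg
Both are rich in G and C, with a GC content of 68.4% for Pnkd and 74.4% for Lgalsl against a median of 52.4% over 32851 mouse promoters of the same length. Pnkd has GC boxes that begin 105 and 34 bases before its RefSeq start, and Lgalsl has them 228, 148 and 31 bases before its RefSeq start. A GC box was found in 32.7% of all promoters. Searched on both strands, neither sequence holds the E-box CACGTG bound by CLOCK and ARNTL (6.02% of all promoters), the variant CACGTT (3.85%), the D-box TTATGTAA of the DBP and NFIL3 family (0.819%), the core AGGTCA bound by the REV-ERB receptors (14.02%) or the cAMP response element TGACGTCA (1.55%). These matches describe letters in this window only. The other coding forms of Pnkd start further upstream, and the sequence before their starts was not searched.

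Pnkd was highest at ZT21 and lowest at ZT9, with a 3.66-fold ratio of the means, and its level stayed high from ZT17 to ZT1. Values are the deposited signal, which is estimated reads per 1000000 of a normalized library and is not divided by gene length. At ZT21 the livers had Pnkd values of 154.1, 154.3 and 144.1 (mean 150.8 ± 5.83, SD, n = 3). At ZT17 they were 137.0, 133.0 and 144.5 (138.2 ± 5.83), and at ZT1 133.4, 136.9 and 141.2 (137.2 ± 3.88). The livers of ZT21 and ZT17 overlapped, as did those of ZT17 and ZT1, while every ZT21 liver was above every ZT1 liver. At ZT13, soon after lights off, Pnkd values were 95.4, 91.1 and 93.1 (93.2 ± 2.13). At ZT5 they were 77.5, 67.9 and 63.2 (69.5 ± 7.26), and at ZT9 39.4, 44.2 and 39.96 (41.2 ± 2.64). No liver of ZT13, ZT5 or ZT9 overlapped with a liver of the neighbouring levels. By the means the order was thus ZT21, ZT17, ZT1, ZT13, ZT5 and ZT9, of which ZT17 and ZT1 did not differ beyond their spread. The ZT21 and ZT17 means differed by more than the SD of either, although the lowest ZT21 liver was just below the highest ZT17 liver.

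Lgalsl followed the same course at a larger ratio, 6.50-fold between ZT21 and ZT9. At ZT21 its values were 34.1, 41.4 and 35.8 (37.1 ± 3.84, SD, n = 3), at ZT1 33.6, 34.6 and 34.1 (34.1 ± 0.494), and at ZT17 32.8, 27.8 and 36.4 (32.3 ± 4.37). These 3 time points overlapped in the order ZT21, ZT1 and ZT17, so the late-dark peak of this gene was not separated from the levels on either side of it. At ZT13 the Lgalsl values were 18.7, 20.9 and 18.6 (19.4 ± 1.30), at ZT5 13.7, 9.80 and 8.85 (10.8 ± 2.58), and at ZT9 5.80, 5.56 and 5.78 (5.71 ± 0.136). None of the ZT13, ZT5 and ZT9 livers overlapped with those of the next level. In both genes the ZT5 livers came in the same order, with mouse 7 highest, mouse 8 in the middle and mouse 9 lowest. Mouse 9 was also the most deeply sequenced liver of the set. Without mouse 7 the ZT5 mean was 65.5 for Pnkd and 9.32 for Lgalsl, which is 1.59 and 1.63 times the ZT9 mean.

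**Figure D1:**
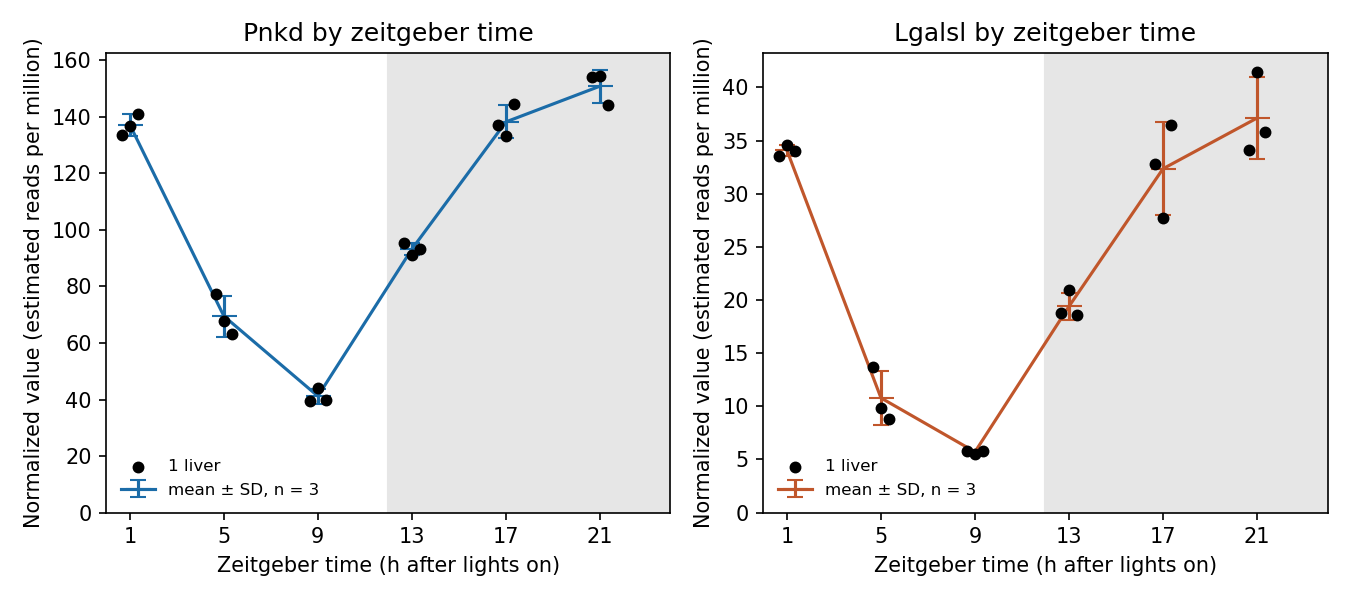
Normalized values (estimated reads per 1000000, linear axes from 0) of Pnkd (left) and Lgalsl (right) against zeitgeber time, with 1 point per liver, the mean ± SD of 3 livers at each time and the dark phase in grey. Both genes fall from ZT1 to ZT9, where the means are 41.2 and 5.71, and lie on a high shelf from ZT17 to ZT1, with their highest means at ZT21 (150.8 and 37.1).

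The fall in the light and the rise around lights off were both steep. From ZT1 to ZT5 Pnkd was lower by a log2 difference of -0.98 ± 0.09 (SE), and from ZT5 to ZT9 by a further -0.74 ± 0.10. For Lgalsl the same steps were -1.60 ± 0.18 and -0.79 ± 0.18. Between ZT9 and ZT13 the Pnkd mean was 2.26 times higher (log2 difference 1.16 ± 0.05) and the Lgalsl mean 3.40 times higher (1.60 ± 0.05). The lights go off inside this interval, 1 h before the ZT13 livers were taken, and the sampling cannot place the start of the rise within it. From ZT13 to ZT17 the log2 differences were 0.56 ± 0.04 for Pnkd and 0.70 ± 0.12 for Lgalsl. Around the top the steps were small, with 0.13 ± 0.05 and 0.20 ± 0.14 from ZT17 to ZT21 and -0.14 ± 0.04 and -0.12 ± 0.08 from ZT21 to ZT1. Livers of ZT21 that all lay above all livers of ZT9 were found for 15.2% of the 14449 genes above the floor of the values, ZT13 livers all above ZT9 livers for 14.5%, ZT5 livers all below ZT1 livers for 12.6%, ZT9 livers all below ZT5 livers for 8.83%, ZT17 livers all above ZT13 livers for 9.63% and ZT1 livers all below ZT21 livers for 7.91%. Since the pair was chosen for its course, these shares are background only.

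The full sequence seen in Pnkd and Lgalsl, with every ZT17, ZT21 and ZT1 liver above every ZT13 liver, these above every ZT5 liver and these above every ZT9 liver, was met by 8 genes, or 0.0554% of those tested, which is background only, since the sequence was read from the pair itself. The others were Arntl, the core clock activator, Blcap, Caprin1, an RNA-binding protein of stress granules, Fpgs, which adds glutamates to folates, Kpnb1, an importin of the nuclear pore route, and Leo1, a subunit of the PAF1 transcription elongation complex.

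A 24 h cosine fitted to log2(value + 1) had its top (acrophase) at ZT20.5 for Pnkd and ZT20.3 for Lgalsl. The amplitude, from the middle of the curve to its top, was 0.88 log2 units for Pnkd and 1.23 for Lgalsl, against a median of 0.17 over the 12480 genes with a mean value of at least 1. Among these genes Pnkd ranked 147 and Lgalsl ranked 44 by amplitude, and by the fold range of the time point means they ranked 322 and 112. The R-squared of the cosine was 0.883 for Pnkd and 0.872 for Lgalsl. Neither course was a plain cosine, since the time points also carried a 12 h component with an amplitude of 0.30 log2 units in Pnkd and 0.43 in Lgalsl, beside a short trough at ZT9 and a long shelf at night. Replicates of Pnkd were close, with a coefficient of variation (CV) of 5.01% between livers of a time point, and only 4.62% of the 12480 genes had a lower CV. That of Lgalsl was 9.72%, with 36.7% of genes lower, and the median over genes was 12.0%. Counting error alone was between 2.17% and 4.85% per liver for Pnkd, which had between 426 and 2129 estimated reads per liver, and between 4.32% and 13.0% for Lgalsl, which had between 59.1 and 536.6.

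Within the same livers the genes rose and fell together. Pearson's r of log2(value + 1) over the 18 livers was 0.990 and Spearman's rho 0.959, and over the 6 time point means r was 0.996. These points share library, depth and time of day, and they fall into clusters by time, so the value is a description of 2 genes chosen for a like course. On this scale Lgalsl was the gene with the highest r for Pnkd, and Pnkd the one with the highest r for Lgalsl, each out of 12479. When 1 liver was left out, Lgalsl ranked 1 or 2 for Pnkd (2 without mouse 13 at ZT9), while Pnkd still ranked 1 for Lgalsl. By Spearman's correlation each ranked 3 for the other, and over the 6 means Lgalsl ranked 7 for Pnkd and Pnkd 3 for Lgalsl. After the mean of each time point was taken off, r of the deviations was 0.674, and 0.260 in the 15 livers outside ZT5, so the ordered ZT5 livers carried most of that relation. The courses differed in depth. The ratio of the Pnkd value to the Lgalsl value in a liver was 4.09 ± 0.400 at ZT21, 4.02 ± 0.104 at ZT1 and 4.31 ± 0.431 at ZT17 (SD, n = 3 each), but 4.82 ± 0.401 at ZT13, 6.57 ± 0.809 at ZT5 and 7.22 ± 0.642 at ZT9. The ratio is not corrected for gene length, so its change over time can be read and its size cannot. All ZT5 and ZT9 livers had a higher ratio than any other liver, as Lgalsl fell further than Pnkd in the light.

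**Figure D2:**
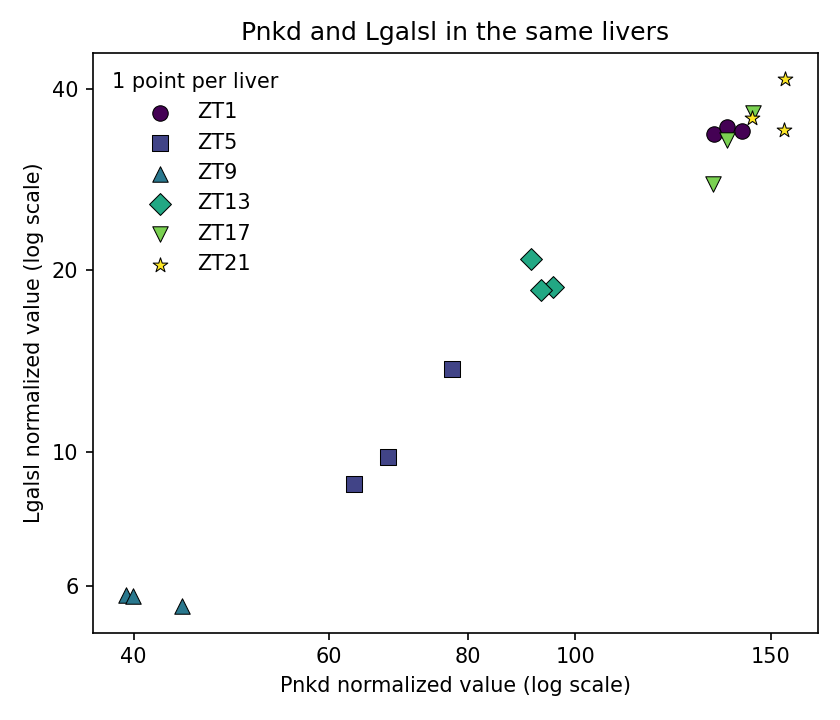
Normalized value of Lgalsl against that of Pnkd in the same liver, on log axes, with 1 point per liver and a symbol for each zeitgeber time. The livers form a single line with the 3 ZT9 livers at the bottom, the ZT5 livers spread in order above them, and the livers of ZT1, ZT17 and ZT21 mixed at the top (r = 0.990 over 18 livers).

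The genes most like the pair were sought by r over the 18 livers. An r of at least 0.9 was reached by 54 genes with Pnkd and by 56 with Lgalsl, and an r of at least 0.95 by 18 with each. The 10 genes most like Pnkd were Lgalsl, Fpgs (r = 0.989), Trim2 (0.986), Blcap (0.982), Caprin1 (0.982), Lrfn3 (0.981), Tjp3 (0.980), Tubb2a (0.974), Leo1 (0.973) and Dtx4 (0.964). For Lgalsl they were Pnkd, Fpgs (0.986), Caprin1 (0.982), Blcap (0.978), Lrfn3 (0.977), Tjp3 (0.976), Leo1 (0.973), Mreg (0.971), Chka (0.970) and Arntl (0.970). Apart from the pair itself, 12 genes were on either list and 6 on both. All 12 had their lowest mean at ZT9. Their highest mean was at ZT1 in 8 and at ZT21 in 4, and their acrophases lay between ZT20.2 and ZT21.2. A timing like that of the pair follows from the choice by r over the same livers.

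The size of the swing varied widely among these 12 genes. Arntl had the largest fold range of time point means, a ratio of 24.1, with means of 31.6 ± 1.88 at ZT1 and 1.31 ± 0.295 at ZT9 (SD, n = 3). Tubb2a, a beta-tubulin, was at 200.6 ± 22.4 at ZT1 and 14.5 ± 1.19 at ZT9, a ratio of 13.8. Chka, the choline kinase that starts phosphatidylcholine synthesis, was at 142.7 ± 16.3 and 13.99 ± 0.375, a ratio of 10.2. These 3 genes swung more than Lgalsl, and Lrfn3, a synaptic adhesion protein, was close to it, with 13.3 ± 1.65 at ZT21, 1.94 ± 0.101 at ZT9 and a ratio of 6.86. Dtx4, a ubiquitin ligase of the Notch pathway, had a ratio of 4.63, between those of Lgalsl and Pnkd. Tjp3, a scaffold of tight junctions, had one of 3.73, near that of Pnkd. The others had smaller ratios, which were 3.17 for Mreg (melanoregulin), 2.92 for the ubiquitin ligase Trim2, 2.54 for Leo1, 2.26 for Fpgs, 2.17 for Caprin1 and 2.08 for Blcap. Of the 11 of these genes with a promoter entry, 7 held a GC box, 3 held AGGTCA (Caprin1, Leo1 and Tjp3), 1 held the cAMP response element (Tubb2a) and 0 held an E-box or a D-box, beside 32.7%, 14.02%, 1.55%, 6.02% and 0.819% of all promoters.

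**Figure D3:**
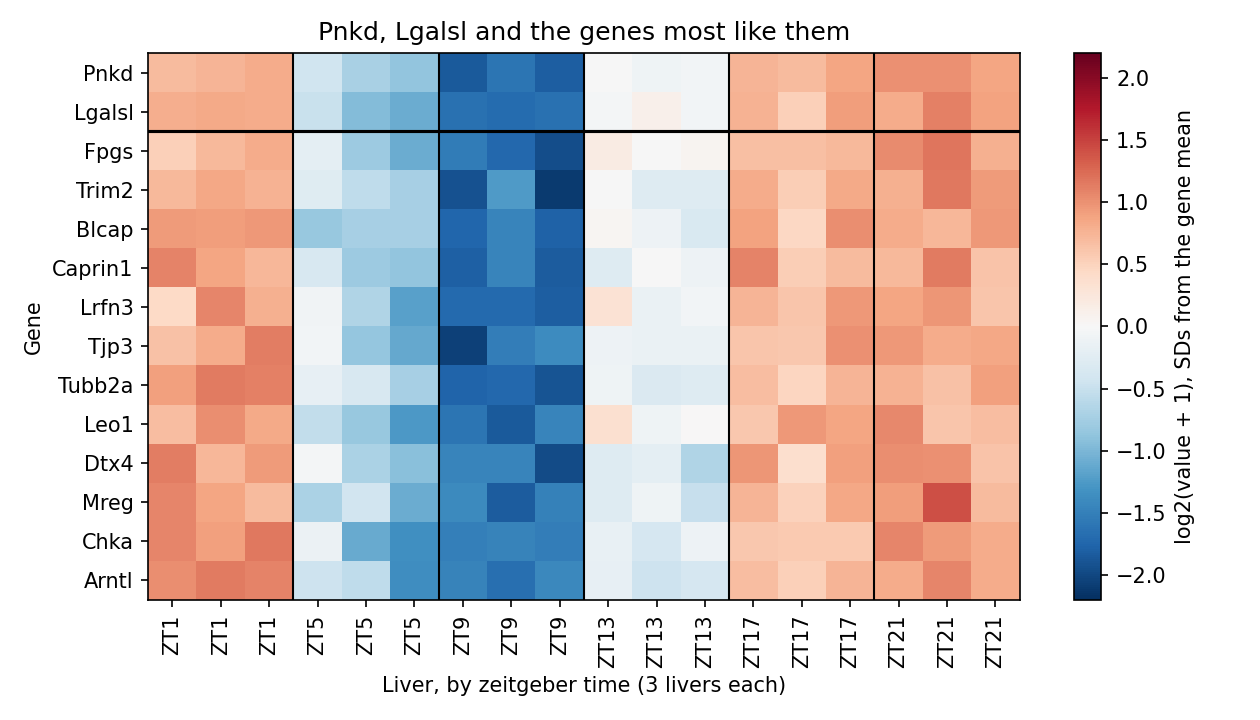
Heat map of log2(value + 1) of Pnkd, Lgalsl and the 12 genes most like them (rows), shown in SDs from the mean of each gene, in the 18 livers ordered by zeitgeber time (columns, 3 livers each). All rows are lowest at ZT9 and high from ZT17 to ZT1, and the third ZT5 liver, mouse 9, is low in most rows; the colour does not show the size of the swing, which runs from 2.08-fold (Blcap) to 24.1-fold (Arntl).

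Among the 50 genes most like each, 43 were shared, 86% of each list, with r of at least 0.909 with Pnkd and 0.911 with Lgalsl. Beside the 12 above they included the clock activator Clock. Enzymes among them were Gldc of the glycine cleavage system, Ddc (aromatic amino acid decarboxylase), Tpi1 (triosephosphate isomerase), Hacl1 (2-hydroxyacyl-CoA lyase of peroxisomes), Sgpl1 (sphingosine phosphate lyase), Itpk1 (an inositol phosphate kinase), Pde9a (a cyclic GMP phosphodiesterase) and Prkaca (the catalytic subunit of protein kinase A). Transporters were the manganese exporter Slc30a10, the lactate and pyruvate carrier Slc16a1, the dicarboxylate carrier Slc13a2 and Slc45a3. Ubiquitin and trafficking genes were Nedd4l, Ubqln1, Ap2a2 and Ergic1, and Psen2 encodes a presenilin of gamma-secretase. Others were Sec14l2, Desi2, Kpnb1, Pvrl1, Helz2, Pxmp4, Pid1, Sept9, Crip2, Net1 and Zfp706.

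The timing of the pair was set beside that of the clock genes. Rhythms of other genes were tested with a 24 h cosine in limma (moderated F test on log2(value + 1), Benjamini-Hochberg adjusted p below 0.05), which called 5103 of 14449 genes, 35.3%. Of these, 2469 genes (17.1% of those tested) had their acrophase in the dark phase, 2634 (18.2%) in the light phase and 1164 (8.06%) between ZT18 and ZT24. This split depends on the scaling: with each column scaled to a plain total, 1694 of 5275 called genes were dark and 3581 light, which is 36.5% of all genes called, 11.7% dark and 24.8% light. Of 19 core clock and clock output genes, 18 were called and Rora, a nuclear receptor, was not (adjusted p = 0.0594). JTK, a rank test of rhythm that called 14.1% of all genes, called 14 of the 19, without Per1, Cry2, Bhlhe40 and Bhlhe41, and the call of Cry2 was lost in 5 of 27 alternatives. By acrophase 9 were dark (among them Cry2, Hlf, Per2, Cry1, Nfil3, Arntl, Clock and Npas2) and 9 light (Nr1d1, Bhlhe41, Nr1d2, Dbp, Bhlhe40, Ciart, Tef, Per3 and Per1), with 7 dark and 12 light of 19 called under the plain total, where Cry2 and Hlf moved across ZT12. With the deposited scaling Hlf also crossed when any 1 of 7 livers was left out and Cry2 when any 1 of 3 was. By acrophase Nfil3, a repressor at D-boxes, was nearest to the pair at ZT20.7, which is 0.264 h after Pnkd and 0.376 h after Lgalsl. Its highest mean, however, was at ZT1 (69.3 ± 10.4, SD, n = 3), beside 42.8 ± 1.86 at ZT21. Its r was 0.898 with Pnkd and 0.922 with Lgalsl, below that of Arntl (0.963 and 0.970). Arntl (amplitude 1.89 log2 units, adjusted p = 1.37e-06) followed at ZT21.0 and Clock (0.66, adjusted p = 5.06e-05) at ZT21.5, while the repressor Cry1 (1.44, adjusted p = 7.97e-08) came before the pair at ZT18.8, 1.67 h before Pnkd and 1.56 h before Lgalsl. Npas2, an activator related to Clock, lay further off at ZT22.6, 2.14 h after Pnkd and 2.25 h after Lgalsl. Time points 4 h apart do not resolve differences of this size.

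Galectins are the relatives of Lgalsl. Of 10 galectin genes listed, 5 were in the table and 2 were called, both with an acrophase in the light, a share that 5 genes cannot set apart from the 35.3% called among all genes (17.1% dark and 18.2% light). The count was 1 without mouse 31 (ZT21) or mouse 14 (ZT9), where Lgals3 missed the threshold, as it also did by JTK (14.1% of all genes called) and by an F test over the 6 time points (26.3% called). Lgals9, which binds TIM-3 on T cells, was highest at ZT1 (422.4 ± 15.4, SD, n = 3) and lowest at ZT13 (235.1 ± 26.1), with an amplitude of 0.43 log2 units at ZT1.4 (adjusted p = 9.24e-07). Lgals3, the galectin of macrophages, was low, with a mean value of 2.42, and had an amplitude of 0.29 at ZT9.1 (adjusted p = 0.0258), which is near the time of the Lgalsl trough. Lgals8 (mean 130.6, amplitude 0.13, adjusted p = 0.0691) had its acrophase at ZT21.3 and its highest mean at ZT21, and it was called under 4 of 27 alternatives, which include the one with a 12 h term (adjusted p = 0.037). Lgals1 (mean 9.68, adjusted p = 0.504) and Lgals4 (adjusted p = 0.692) were not called. The correlations of the 5 with Lgalsl over the 18 livers ran from -0.53 (Lgals3) to 0.42 (Lgals8).

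Of 16 other genes with a metallo-beta-lactamase fold, 5 were called, 1 dark and 4 light, and 11 were not. This share of 31.2% is close to the 35.3% called among all genes, 17.1% dark and 18.2% light. The count fell to 2 without mouse 2 or mouse 3 and to 3 without mouse 1 (all ZT1), mouse 20 (ZT13) or mouse 15 (ZT9). Ethe1, the mitochondrial persulfide dioxygenase that is also a relative of glyoxalase II, had the largest amplitude of the 16, 0.85 log2 units, close to that of Pnkd. Its means were 63.4 ± 10.1 at ZT1, 39.7 ± 5.10 at ZT5, 19.2 ± 3.14 at ZT9, 24.6 ± 1.99 at ZT13, 44.4 ± 1.92 at ZT17 and 60.7 ± 2.64 at ZT21 (SD, n = 3 each), with an acrophase at ZT22.5 (adjusted p = 2.03e-07). At ZT13 Ethe1 was still near its lowest level. Hagh, which encodes glyoxalase II itself, varied little, with time point means from 196.1 at ZT9 to 234.4 at ZT17 (amplitude 0.09, adjusted p = 0.123). Lactb2, a mitochondrial endoribonuclease (amplitude 0.16, ZT0.9, adjusted p = 0.0327), and Haghl (0.20, ZT0.6, 0.0456) were called with acrophases at the start of the light phase, and the DNA repair nucleases Dclre1c (0.30, ZT4.8, 0.0174) and Dclre1a (0.23, ZT11.1, 0.0318) later in it. The call of Haghl was lost in 16 of 27 alternatives, that of Dclre1a in 8 and that of Lactb2 in 7. JTK called 1 of the 16, beside 14.1% of all genes.

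In the wider glyoxalase and glutathione pathway, 9 of 15 genes in the table were called, 6 dark and 3 light, beside 35.3% of all genes called, 17.1% dark and 18.2% light. With a plain total 10 were called, 4 dark and 6 light, beside 36.5% of all genes, 11.7% dark and 24.8% light. JTK called 4 of the 15, beside 14.1% of all genes. Glo1, which forms the substrate of glyoxalase II, was highest at ZT1 (516.6 ± 35.8, SD, n = 3) and lowest at ZT13 (267.6 ± 12.9), with an amplitude of 0.43 log2 units at ZT23.5 (adjusted p = 6.93e-06). Gclc, the catalytic subunit of the first enzyme of glutathione synthesis, had an amplitude of 0.51 at ZT23.5 (adjusted p = 0.00253), and its means were 502.6 ± 59.0 at ZT1, 240.9 ± 21.1 at ZT9 and 214.8 ± 89.5 at ZT13, where 1 liver had the lowest value of all, 132.9. Gsr, glutathione reductase, lay at ZT24.0 (0.27, adjusted p = 0.000163), on the border of the phases, and was light under the plain total and when any 1 of 6 livers was left out. The lowest mean of Glo1 was thus at ZT13, when Pnkd and Lgalsl were already above their ZT9 level. Ggct (gamma-glutamylcyclotransferase, ZT21.2, amplitude 0.33, adjusted p = 0.0064), Park7 (DJ-1, ZT17.9, 0.12, 0.0405) and Ldhd (D-lactate dehydrogenase, ZT15.9, 0.17, 0.00634) were the other dark genes, but the call of Park7 was lost in 14 of 27 alternatives, the plain total among them. Haghl, Gss (glutathione synthetase, ZT10.9, 0.21, 0.00782) and Chac1 (a glutathione-degrading enzyme, ZT3.3, 0.62, 0.0401) were light, and Gclm, the partner of Gclc, was not called (adjusted p = 0.239). The call of Chac1 was lost in 10 of 27 alternatives.

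Of 13 genes listed for other paroxysmal or episodic dyskinesias, 8 were in the table, of which 1 was called dark and 3 light, beside 17.1% dark and 18.2% light among all genes. Correlations of the 8 with Pnkd ran from -0.89 (Tbc1d24) to 0.17 (Slc2a1). Gch1, the first enzyme of tetrahydrobiopterin synthesis, had a correlation of -0.82 with Pnkd over the 18 livers, with 141.8 ± 6.26 at ZT9 and 52.7 ± 4.29 at ZT17 (SD, n = 3; amplitude 0.69 log2 units, ZT6.5, adjusted p = 1.14e-06). Tbc1d24 (0.27, ZT9.1, adjusted p = 0.0021) and Dlat, the E2 subunit of pyruvate dehydrogenase (0.24, ZT4.1, 0.00245), were light as well. Pdhx, another component of that complex, was called at ZT12.9 (0.15, 0.0306) and moved to ZT11.6 under the plain total, where 5 of the 8 were called, all light, Echs1 among them, beside 24.8% of all genes called light with that scaling. The call of Pdhx was lost in 3 of 27 alternatives, JTK and the F test over time points among them. With the deposited scaling Pdha1 and Echs1, with mean values of 131.1 and 204.4, were not called (adjusted p = 0.245 and 0.238).

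The chromosomal neighbours were taken within 100 kb of each gene. There, 22 genes were annotated and 8 were in the table, 7 near Pnkd and 1 near Lgalsl, and 3 were called, all light, beside 35.3% called, 17.1% dark and 18.2% light among all genes, a background from which 8 genes cannot be set apart. JTK called 1 of the 8 (Ctdsp1), beside 14.1% of all genes, and the F test over time points 1 (Aamp), beside 26.3%. With a plain total 4 were called, all light, beside 24.8% of all genes called light. Aamp, which lies 192 bp from Pnkd, had its acrophase at ZT9.7, near the Pnkd trough, with an amplitude of 0.16 log2 units (adjusted p = 0.00537). Its highest mean, however, was at ZT13 (116.6 ± 10.3, SD, n = 3), beside 108.5 ± 1.86 at ZT9. Arpc2 of the actin-nucleating ARP2/3 complex (0.13, ZT11.9, 0.0174), whose acrophase passed ZT12 into the dark with median-of-ratios size factors and also when any 1 of 7 livers was left out, and the phosphatase gene Ctdsp1 (0.15, ZT3.6, 0.0243), whose call was lost in 4 of 27 alternatives, were the others. Tmbim1, inside Pnkd, was at 42.2 ± 0.365 at ZT9 and 40.01 ± 1.48 at ZT21 (SD, n = 3) and was not called (amplitude 0.10, adjusted p = 0.123), but it was with a plain total, in 1 of 27 alternatives. Also not called were Gm29358, Slc11a1, Usp37 and, near Lgalsl, Aftph (adjusted p = 0.306). Whether reads were counted by strand is not given in the sources used here, but the exons of Pnkd share 0 bases with those of the genes inside its span. Median amplitudes were 0.15 for galectins, 0.16 for the metallo-beta-lactamase fold, 0.17 for the glyoxalase and glutathione genes, 0.16 for the dyskinesia genes, 0.11 for the neighbours and 1.34 for the clock genes, beside 0.16 for all genes tested.

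**Figure D4:**
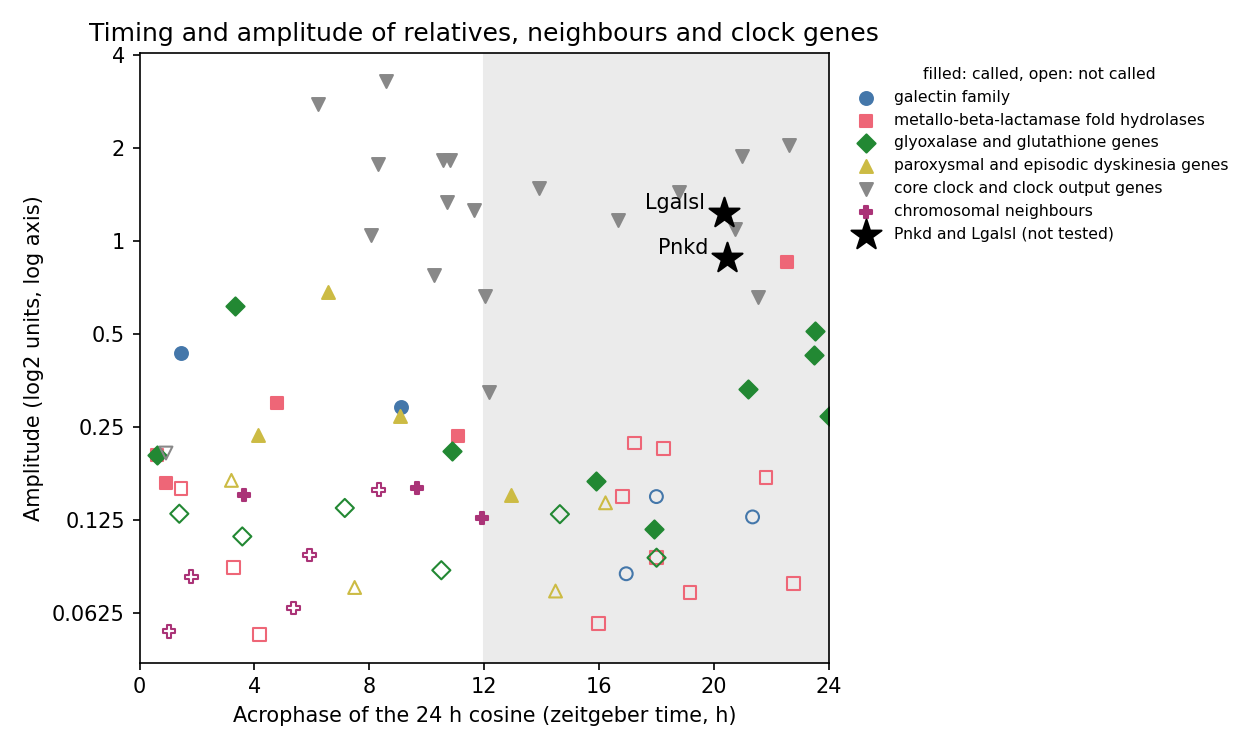
Amplitude (log2 units, log axis) against acrophase (zeitgeber time in h, dark phase in grey) of the 24 h cosine for the listed genes, filled where limma called a rhythm and open where it did not, with Pnkd and Lgalsl as untested stars. The pair sits among clock genes in amplitude, 0.88 and 1.23, and among the relatives Ethe1 comes nearest to it (0.85 at ZT22.5), while galectins and neighbours stay at or below 0.43.

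In whole liver, fewer cells of a type and less RNA per cell cannot be told apart. The summed value of the 8 hepatocyte markers was between 81844 and 107747 per liver, with 94060 ± 7942 at ZT21 and 82507 ± 1014 at ZT9 (SD, n = 3). Of these markers 3 were called, 1 dark and 2 light, beside 35.3% of all genes called, 17.1% dark and 18.2% light. The 8 macrophage markers, of which Clec4f had the highest value, summed to 168.0 ± 37.2 at ZT21 and 276.6 ± 28.9 at ZT9, and 3 of them were called, all light, beside 35.3% of all genes called and 18.2% called light. The 8 sinusoidal endothelial markers, led by Fcgr2b, summed to 195.5 ± 43.8 and 272.3 ± 35.1, with 4 called, all light, beside the same shares. Stellate markers (8 of 8, led by Dcn) summed to 185.9 ± 10.6 and 212.9 ± 7.37, with 1 called, which was light, beside 35.3% of all genes called. In the macrophage, endothelial and stellate sums every ZT21 liver was below every ZT9 liver, the reverse of Pnkd and Lgalsl. The share of all genes with that order was not worked out. In the hepatocyte sum every ZT21 liver was above every ZT9 liver, an order met by 15.2% of all single genes. That sum is mostly Alb, with a mean value of 64809 beside a median sum of 95564, so it does not speak for the list. Cholangiocyte markers (6 of 7 in the table, led by Spp1) were between 48.2 and 72.2 per liver, with 62.4 ± 7.31 at ZT21 and 61.2 ± 9.53 at ZT9, and 4 of them were called, all dark, beside 17.1% of all genes called dark. Lymphocyte (5 of 8, led by Ms4a1), neutrophil (4 of 6, led by Cxcr2) and pancreas markers (1 of 8, Cela1) stayed at or below 15.3 in each liver. Blood markers (5 of 6, led by Alas2) were between 108.3 and 673.9, the highest in mouse 7 at ZT5, the ZT5 liver with the highest Pnkd and Lgalsl. Mouse 7 also had the highest sum of the 18 livers for macrophage (325.1), endothelial (309.7), stellate (289.1) and lymphocyte (6.33) markers. It did not have the highest sum for hepatocyte, cholangiocyte, neutrophil or pancreas markers. The part of these differences in the courses of Pnkd and Lgalsl was not tested.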

How the data were processed

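Estimated counts came from RSEM 1.2.20, run on 50-nt reads against the Ensembl transcripts of GRCm38. Cutadapt had taken off the adapters first. The authors normalized the estimated counts with limma. The deposited signal is the estimated count plus 0.5, per 1000000 of an effective library. Columns add up to between 941088 and 1077230. Of 14451 genes, 2 were at the floor in every liver and 14449 were tested. Reads behind a value were worked out from that floor, so counting errors cover counting only. Gene models are from GENCODE M21 (GRCm38).

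log2(value + 1) was fitted with limma 3.58.1 in R 4.3.3 (24 h cosine, moderated F test, Benjamini-Hochberg adjusted p below 0.05 over all 14449 genes). Likeness was Pearson's r over 18 livers among 12480 genes with a mean of at least 1. Named genes were the 10 most like each gene, those in the highest 50 of both, called list members and the 3 of highest value in each list, and neighbours within 100 kb; 3 genes under this rule are not reported here. Members, lists and tests were chosen with earlier results of these data known. Alternatives were JTK (20 to 28 h), an F test over time points, a 12 h term, pseudocounts, scalings, filters and leaving out each liver. Fits were tested on simulated data. Python 3.11.15 and scipy 1.17.1 were used. No liver pair of a time point agreed within sampling noise.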

Additional observations from a re-analysis of the deposited data

How the results depend on the processing

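Without any 1 liver, the log2 difference of ZT21 over ZT9 was between 1.82 and 1.90 for Pnkd (1.85 with all livers) and between 2.42 and 2.56 for Lgalsl (2.50), with amplitudes of 0.83 to 0.92 and 1.18 to 1.29, acrophases of ZT20.3 to ZT20.6 and ZT20.2 to ZT20.5, r of 0.989 to 0.992, and 9 to 10 of the 10 most alike genes kept. Without a pseudocount the Lgalsl difference was 2.70. By Spearman's correlation, 5 of the 10 genes most like Pnkd and 5 of those most like Lgalsl were kept. Called genes were between 4573 and 5088 without 1 liver (dark 2226 to 2463, light 2347 to 2625), and JTK called 2039 (dark 1014, light 1025). The scaling to a plain total gave 1694 dark and 3581 light genes. Called list members ranged without 1 liver from 1 to 3 for galectins, 2 to 7 for the metallo-beta-lactamase fold, 6 to 9 for glyoxalase and glutathione genes, 3 to 5 for dyskinesia genes, 17 to 19 for clock genes and 2 to 3 for neighbours. The metallo-beta-lactamase count was 2 without mouse 2 or mouse 3 and 3 without mouse 1 (all ZT1), mouse 20 (ZT13) or mouse 15 (ZT9), and the galectin count was 1 without mouse 31 (ZT21) or mouse 14 (ZT9). JTK called 1 galectin, 1 metallo-beta-lactamase fold gene, 4 glyoxalase and glutathione genes and 1 neighbour, and the F test over time points 1 galectin and 1 neighbour. The cause was not tested. Of the named calls, those of Haghl (16 of 27 alternatives), Park7 (14), Chac1 (10), Dclre1a (8) and Lactb2 (7) were lost most often. The acrophases of Gsr, Pdhx, Cry2, Hlf and Arpc2, which lie near a border of the phases, crossed it under some alternatives. No other list member called in both settings changed phase. JTK and the F test over time points were left out of this comparison of phases. With 3 livers per time point and 4 h between times, acrophases are coarse, and a day was sampled once. No paired analysis was possible because mouse numbers are not shared between time points.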

Other observations

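Some genes ran opposite to the pair over the 18 livers, and they were chosen after their values were seen. Narf, which encodes a nuclear prelamin A recognition factor, had the lowest correlation with both, -0.96 with Pnkd and -0.97 with Lgalsl, and was highest at ZT9 (68.2 ± 3.84, SD, n = 3) and lowest at ZT1 (32.6 ± 2.55). Dbp, a clock output activator at D-boxes, was at 110.6 ± 3.71 at ZT9 and 0.308 ± 0.148 at ZT1 (r = -0.95 with Pnkd and -0.97 with Lgalsl). The clock repressor Nr1d2 was at 125.1 ± 13.1 at ZT9 and 11.6 ± 2.13 at ZT21 (-0.94 and -0.95). Slc5a6, the sodium-dependent multivitamin transporter, was at 18.3 ± 0.786 at ZT9 and 4.84 ± 0.374 at ZT21 (-0.95 and -0.94), and Ralgapa2 at 59.9 ± 8.36 and 31.5 ± 3.84 (-0.95 and -0.93).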
